A study of Rattus norvegicus with 12 samples.

Results

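The genes described here are interferon beta (Ifnb1), both chains of its receptor (Ifnar1 and Ifnar2) and 5 transcription factors that act before or after it (Irf1, Irf3, Irf7, Irf9 and Stat2). They were taken by name: all 8 were found once each in the deposited table of named genes, and all 8 were among the 14601 genes tested, out of 43360 rat genes counted. RNA was sequenced from NRK-49F, a fibroblast line of normal rat kidney. Cells carried either the empty plasmid pcDNA3.1 or a plasmid for human HDAC1 with a Flag tag, so the controls were transfected too, and each kind was kept for 24 hours in 0.5% serum medium alone (vehicle) or with 2 ng/ml TGFB1. Each combination of plasmid and treatment was sequenced in 3 libraries, which gives 4 groups. The groups follow the sample titles, because the treatment field numbers the cytokine upward from TGFB1 through the treated libraries and the design text treats all cells. Nothing in the labels tells whether replicate libraries came from different cultures, and the p-values therefore reflect the variation among libraries, which may be technical.

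Interferon beta is the type I interferon that fibroblasts secrete when they sense foreign nucleic acid. Sensors activate IRF3 and IRF7, which bind the Ifnb1 promoter together with NF-kB and AP-1. The secreted protein binds IFNAR1 and IFNAR2, and the receptor kinases then activate STAT2, which joins IRF9 in the complex ISGF3 and switches on interferon-stimulated genes. Irf7, Irf9 and Stat2 are themselves such genes, and IRF1 is a further activator induced by interferons.

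Library totals ran from 18397093 to 36652084 counts. Levels are in CPM, counts per 1000000 counts of the library after scaling. In vehicle, Hdac1 had a level of 210 ± 4.13 CPM in empty vector cells (SD, n = 3) and rose to 421 ± 43.3 CPM in cells with the HDAC1 plasmid (edgeR adjusted p = 9.29e-07). Under TGFB1 the same levels were 267 ± 21.1 and 464 ± 43.5 CPM (edgeR adjusted p = 1.60e-05). Hdac1l was at 8.29 ± 7.33 CPM in empty vector cells and 1172 ± 279 CPM with the plasmid in vehicle, and at 9.30 ± 1.64 and 1089.7 ± 251 CPM under TGFB1 (edgeR adjusted p = 0.000238 and 0.00122). How the reads of human HDAC1 divide between the rat genes Hdac1 and Hdac1l was not tested, so these are not levels of the rat transcript alone. Fibroblast markers (9 of 10 tested) summed to between 12476 and 25757 CPM in each library. The sum was uneven, with Col1a1 at 2777 to 6636 CPM and Fn1 at 3509 to 8865 CPM. Pdgfrb was at 21.4 to 45.0 CPM, Dcn at only 0.16 to 0.86 CPM, and Thy1 had no row of that symbol. Of 10 leukocyte and macrophage markers only Cd68 and Csf1r were tested, and the others, among them Ptprc, had no row of that symbol. Heart muscle transcripts, which a kidney fibroblast line should lack, had a summed level of 57.5 CPM in the first vehicle library of the empty vector, against 322.6 and 343 CPM in replicates 2 and 3. With HDAC1 and vehicle, replicate 1 was the lowest too, at 199 CPM against 386 and 353 CPM. Under TGFB1 this sum was 122 to 137 CPM in the HDAC1 libraries and 364 to 458 CPM in the empty vector libraries. Brain transcripts went the same way. The effects on the 8 genes and the HDAC1 effects on the list genes named below were recomputed with these transcripts as a covariate, and calls that ended are given. Under TGFB1 these sums did not overlap between the plasmids, so the covariate and HDAC1 cannot be well told apart there. Kept or ended calls with TGFB1 therefore do not settle the part of these transcripts, which was not tested.

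Ifnb1 (ENSRNOG00000006268) was the single gene of the 8 that rose with HDAC1. Its promoter is shown because it carries the sites through which the factors named above are known to act. The 250 bases before the start, from RefSeq on the assembly GRCr8 (chr5:108067488-108067737, minus strand), are printed with 2 kinds of match in capitals, the interferon regulatory factor core AANNGAAA and an NF-kB core (GGGA and TTCC set 2 bases apart), on either strand.
Ifnb1: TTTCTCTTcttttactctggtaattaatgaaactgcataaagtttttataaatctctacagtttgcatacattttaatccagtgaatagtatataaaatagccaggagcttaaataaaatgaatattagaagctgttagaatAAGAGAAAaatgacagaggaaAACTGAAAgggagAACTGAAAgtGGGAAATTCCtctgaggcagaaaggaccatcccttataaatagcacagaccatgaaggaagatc
The interferon regulatory factor core occurred 4 times, and the copies at 87 to 80 and 74 to 67 bases before the start stood close to the single NF-kB core at 64 to 55 bases. Of the 8 genes, 2 had the NF-kB core in this window and 4 the interferon regulatory factor core. Irf3 had both as well, at 29 to 20 and 32 to 25 bases before its start. The NF-kB core was found in 1.08% of the 33469 promoter windows of this length in the table and the interferon regulatory factor core in 23.3%. A match is a description of the letters and does not show binding.

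In the empty vector with vehicle, Ifnb1 was at 5.65, 6.20 and 5.29 CPM in replicates 1 to 3. With HDAC1 and vehicle it was at 13.5, 11.1 and 10.7 CPM. All 3 libraries with HDAC1 lay above all 3 with the empty vector. The rise was 2.07-fold (log2 fold change 1.05 ± 0.13 SE, edgeR adjusted p = 2.74e-05). With TGFB1 the values were 4.66, 5.65 and 6.25 CPM for the empty vector and 14.1, 11.8 and 11.7 CPM for HDAC1. These groups did not overlap either, and the rise was 2.26-fold (log2 fold change 1.18 ± 0.13 SE, edgeR adjusted p = 5.31e-05). Ifnb1 rested on few reads, from 103 to 510 counts in a library.

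TGFB1 itself was not detected to move Ifnb1. Its log2 fold change was -0.05 with the empty vector (95% interval -0.34 to 0.25, edgeR adjusted p = 0.806) and 0.08 with HDAC1 (-0.18 to 0.33, edgeR adjusted p = 0.632). The HDAC1 effect with TGFB1 exceeded that in vehicle by 0.12 on the log2 scale (95% interval -0.27 to 0.52, edgeR adjusted p = 0.842 for the interaction). The levels thus fell into 2 pairs, with the HDAC1 groups above the empty vector groups and the treatments overlapping within each pair.

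Irf7 (ENSRNOG00000017414), the factor that carries the amplifying loop of the interferon response, fell with HDAC1. It is the single gene of the 8 with the core of the interferon-stimulated response element (GAAA repeated after 2 bases) in the 250 bases before its start, a core found in 3.41% of the windows. The 30 bases from 69 to 40 before the start (GRCr8, chr1:205800063-205800092, minus strand) hold this core, read here as its reverse complement, and 1 further interferon regulatory factor core, both in capitals.
Irf7: TTTCATTTTCccgagacgcagTTTCGTTTc
Only this stretch of the Irf7 window is shown. The window overlaps the span that RefSeq annotates for the gene, and whether the stretch lies inside that span was not tested. The windows of Ifnar2, Irf9 and Stat2 overlap the spans of their genes too. That they lack the core therefore holds for these windows only.

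Irf7 was at 2897, 2852 and 2748 CPM in replicates 1 to 3 of the empty vector with vehicle and at 1612, 1951 and 1653 CPM with HDAC1. Every HDAC1 library was below every empty vector library. Irf7 fell by 0.70 ± 0.09 (SE) on the log2 scale, to 0.614 of its level (edgeR adjusted p = 2.43e-05). With TGFB1 the values were 1967, 1908 and 2259 CPM for the empty vector and 1086, 1326 and 1143 CPM for HDAC1, again without overlap. The fall was by 0.79 ± 0.09 (SE) on the log2 scale (edgeR adjusted p = 4.65e-05). By p-value, Irf7 ranked 4 and Ifnb1 ranked 6 of the 14601 genes for HDAC1 with TGFB1, and they ranked 44 and 55 for HDAC1 in vehicle. Both genes were picked with their HDAC1 effects known, so the ranks are only a description.

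TGFB1 lowered Irf7 as well, by 0.47 on the log2 scale with the empty vector (edgeR adjusted p = 0.000104) and by 0.55 with HDAC1 (edgeR adjusted p = 1.98e-05). The lowest level was that of HDAC1 with TGFB1, whose 3 libraries lay below all others. HDAC1 with vehicle (1612 to 1951 CPM) and the empty vector with TGFB1 (1908 to 2259 CPM) overlapped. The interaction was -0.08 (95% interval -0.34 to 0.17, edgeR adjusted p = 0.835), so a difference in the HDAC1 effect between treatments was not detected within that interval. The comparisons of TGFB1 use the same libraries as those of HDAC1 and are not independent of them.

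The opposite movement of Ifnb1 and Irf7 was known when these genes were picked, and is given as a description. Within a library their ratio needs no scaling between libraries, and only its change is read, since the genes differ in length. Ifnb1 had 1.95, 2.17 and 1.93 counts per 1000 Irf7 counts with the empty vector and vehicle, and 8.36, 5.71 and 6.48 with HDAC1. With TGFB1 the ratio was 2.37, 2.96 and 2.77 with the empty vector, and 13.0, 8.89 and 10.2 with HDAC1. The mean ratio was thus 3.39-fold higher with HDAC1 in vehicle and 3.96-fold higher with TGFB1. Among the HDAC1 libraries of each treatment, replicate 1 had the highest ratio and replicate 2 the lowest.

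**Figure D1:**
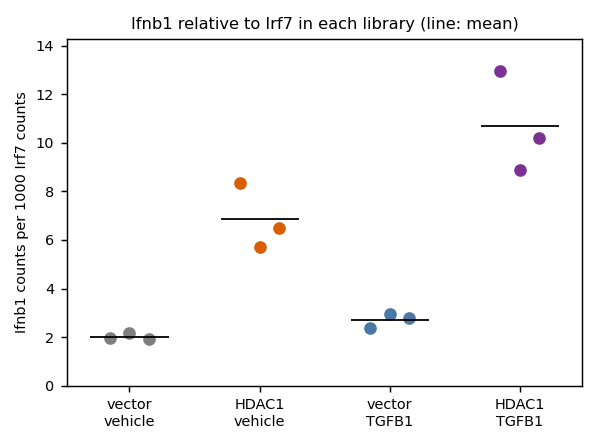
Ifnb1 counts per 1000 Irf7 counts (vertical axis, linear from 0) in each of the 12 libraries, by group, with replicates 1 to 3 from left to right and a line at the group mean. All 6 libraries with HDAC1 (5.71 to 13.0) lie above all 6 with the empty vector (1.93 to 2.96).

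Stat2 and Irf9, which are subunits of ISGF3, differed in how far they moved. Stat2 (ENSRNOG00000031081) was at 509, 491 and 512 CPM in the empty vector with vehicle and at 359.6, 438 and 374 CPM with HDAC1. The groups were separate, and Stat2 fell by 0.37 ± 0.07 (SE) on the log2 scale (edgeR adjusted p = 0.00130). Under TGFB1 it was at 302, 305 and 294 CPM for the empty vector and at 221, 249 and 223 CPM for HDAC1, a fall by 0.38 ± 0.07 (SE) on the log2 scale (edgeR adjusted p = 0.00399). With heart and brain transcripts as a covariate the latter was -0.35 ± 0.10 (SE) and not called (edgeR adjusted p = 0.125). The value thus changed little and its standard error grew. TGFB1 lowered Stat2 by 0.75 on the log2 scale with either plasmid (edgeR adjusted p = 2.18e-08 for the empty vector and 2.47e-08 for HDAC1). All 4 groups of Stat2 were separate from their neighbours, in falling order the empty vector and then HDAC1 in vehicle, followed by the empty vector and then HDAC1 under TGFB1.

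Irf9 (ENSRNOG00000019478), the DNA-binding subunit of ISGF3, had the same order over a smaller range. It was at 125, 114 and 114 CPM, then 109, 109 and 105 CPM with HDAC1 and vehicle. With TGFB1 it was at 94.2, 97.4 and 103 CPM for the empty vector and 88.0, 90.6 and 90.8 CPM for HDAC1. The libraries of the groups did not overlap, yet the HDAC1 effect was not called in vehicle (log2 fold change -0.13, edgeR adjusted p = 0.150) or with TGFB1 (-0.13, edgeR adjusted p = 0.205). Averaged over both treatments Irf9 fell by 0.13 on the log2 scale (edgeR adjusted p = 0.0329). That call ended in 8 of the 12 fits that left out 1 library, with values from -0.13 to -0.10: those without replicates 1, 2 or 3 of the empty vector with vehicle, 1 or 3 of HDAC1 with vehicle, 2 of the empty vector with TGFB1, and 1 or 3 of HDAC1 with TGFB1. TGFB1 lowered Irf9 by 0.26 on the log2 scale with each plasmid (edgeR adjusted p = 0.000952 and 0.00124).

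The receptor chains behaved differently from one another. Ifnar1 (ENSRNOG00000028594), the chain that holds the kinase TYK2, was at 107, 113 and 101 CPM in the empty vector with vehicle and at 81.7, 88.9 and 82.2 CPM with HDAC1. It fell by 0.35 ± 0.06 (SE) on the log2 scale without overlap (edgeR adjusted p = 0.000846). Under TGFB1 it was at 74.0, 75.1 and 73.5 CPM for the empty vector and 74.9, 68.3 and 68.9 CPM for HDAC1, which overlapped (log2 fold change -0.07, 95% interval -0.21 to 0.06, edgeR adjusted p = 0.554). The HDAC1 effects in the 2 treatments differed by 0.28 on the log2 scale (95% interval 0.09 to 0.47), which did not pass over all genes (edgeR adjusted p = 0.168, unadjusted p = 0.00636). TGFB1 lowered Ifnar1 by 0.53 on the log2 scale with the empty vector and by 0.25 with HDAC1 (edgeR adjusted p = 6.42e-07 and 0.00261). Ifnar2 (ENSRNOG00000045668), the chain that docks STAT2, ranged from 29.9 to 36.8 CPM over the 12 libraries and was called in none of the comparisons. Its log2 fold changes ran from -0.16 with TGFB1 and the empty vector (95% interval -0.32 to 0.00, edgeR adjusted p = 0.0918) to 0.03 with HDAC1 and TGFB1 (-0.14 to 0.19, edgeR adjusted p = 0.886).

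Irf1 (ENSRNOG00000008144) had the largest log2 change of the 8 genes with TGFB1, and its HDAC1 effect was not called. It was at 258, 258 and 242 CPM in the empty vector with vehicle and at 136, 136 and 146 CPM with TGFB1, a fall by 0.86 ± 0.06 (SE) on the log2 scale (edgeR adjusted p = 2.18e-10). With HDAC1 it went from 228, 242 and 219 CPM to 137, 131 and 134 CPM, a fall by 0.78 on the log2 scale (edgeR adjusted p = 1.03e-09). The treatments were widely separate with either plasmid. The HDAC1 effect was -0.14 in vehicle (95% interval -0.26 to -0.01, edgeR adjusted p = 0.137) and -0.06 with TGFB1 (-0.19 to 0.07, edgeR adjusted p = 0.602). The groups met at 242 CPM in vehicle and overlapped under TGFB1. Irf3 (ENSRNOG00000043388), the factor that sensors activate first and whose RNA is made without interferon, ranged from 23.5 to 36.6 CPM. Its HDAC1 effect was -0.26 in vehicle (edgeR adjusted p = 0.103) and -0.15 with TGFB1 (edgeR adjusted p = 0.412). TGFB1 lowered it by 0.27 on the log2 scale with the empty vector (edgeR adjusted p = 0.0342), where the groups overlapped, and this call ended without replicate 1 or 3 of the empty vector with vehicle (-0.19 and -0.27) and without replicate 1 or 2 of the empty vector with TGFB1 (-0.27 and -0.18).

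**Figure D2:**
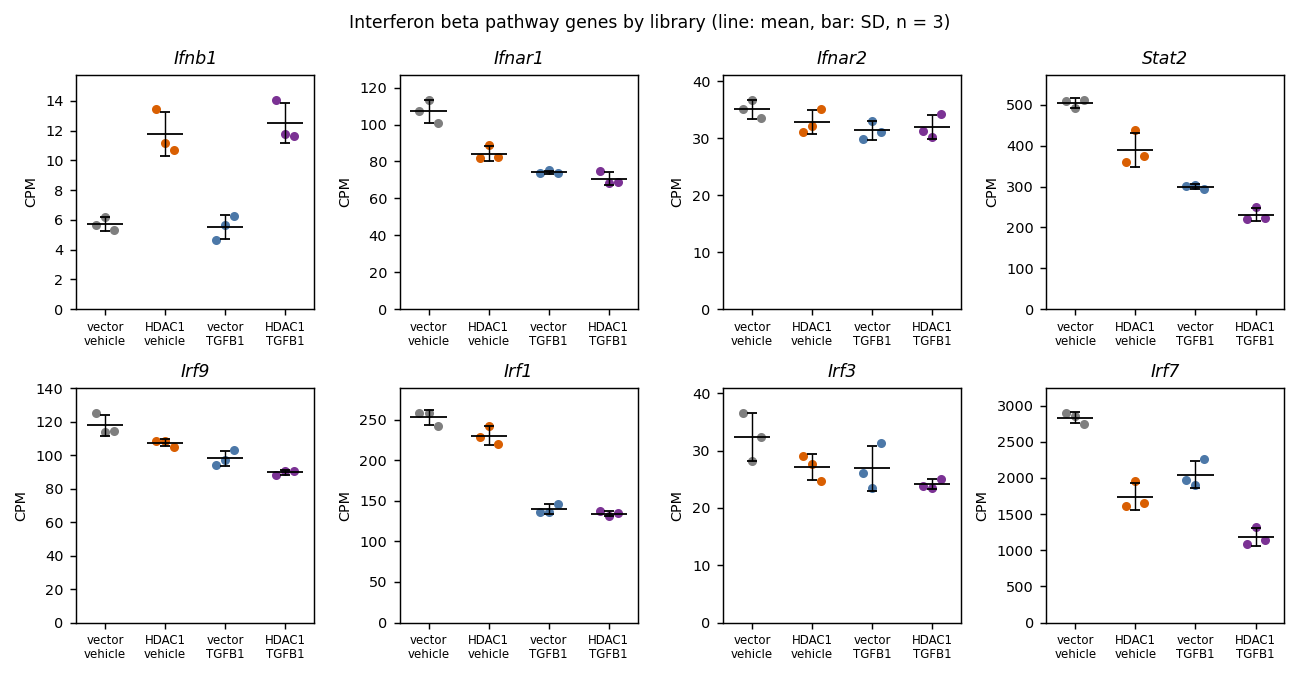
Level of each of the 8 genes in CPM (vertical axes, linear from 0, a different scale for each gene) in the 12 libraries, by group, with replicates 1 to 3 from left to right, a line at the mean and a bar of 1 SD (n = 3). Ifnb1 is high in both HDAC1 groups, Irf7 is low in them, and Irf1 separates the treatments (219 to 258 CPM in vehicle, 131 to 146 CPM with TGFB1).

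Counted over the 8 genes, HDAC1 in vehicle raised 1 (Ifnb1) and lowered 3 (Irf7, Stat2 and Ifnar1), where 6.64% of all tested genes were called higher and 7.32% lower. With TGFB1 it raised 1 and lowered 2 (Irf7 and Stat2), beside 2.17% and 4.36% of all genes. Averaged over treatments it raised 1 and lowered 4, beside 9.51% and 10.7%. These HDAC1 counts include Ifnb1 and Irf7, whose movement was known when the genes were picked, so the shares are a scale and not a test. TGFB1 lowered 6 with the empty vector and 5 with HDAC1 and raised 0 in either. The background was high here, at 25% lower and 25.9% higher with the empty vector and at 24.2% lower and 24.9% higher with HDAC1. The interaction of HDAC1 and TGFB1 was called for 0 of the 8 by edgeR, with 1 (Ifnar1) at an unadjusted p under 0.05 and 0 called by DESeq2, beside 0.479% of all genes. The median log2 fold change of the 8 was -0.20 for HDAC1 in vehicle and -0.10 for HDAC1 with TGFB1, against -0.0082 and -0.0015 over all genes tested. For TGFB1 the medians were -0.37 (empty vector) and -0.26 (HDAC1), against 0.012 and -0.019.

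**Figure D3:**
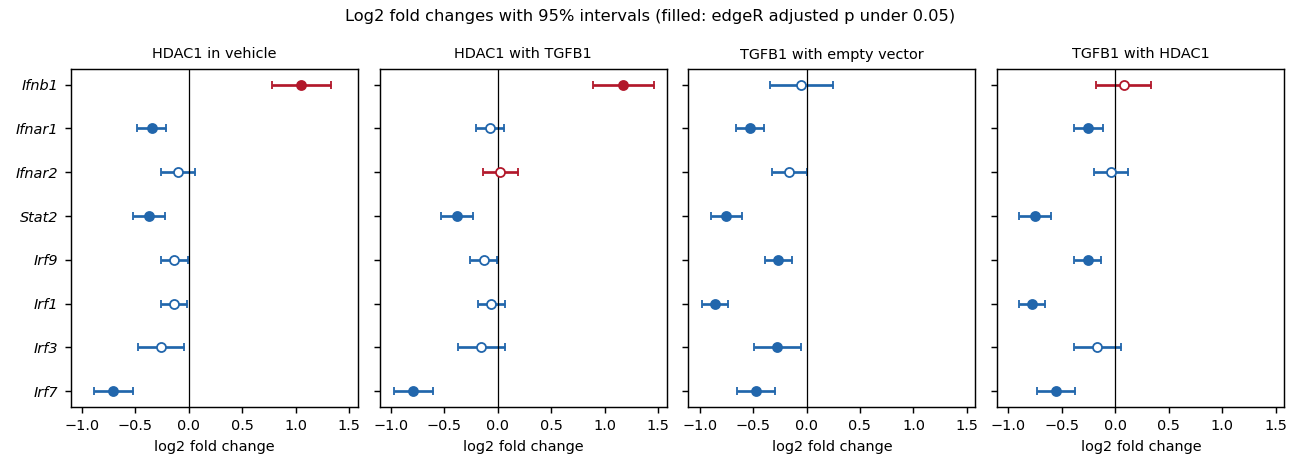
Log2 fold change (horizontal axis, the same in all panels) with its 95% interval for the 8 genes in 4 comparisons, filled where the edgeR adjusted p was under 0.05. Ifnb1 stands to the right of 0 in both HDAC1 panels (1.05 and 1.18), and the filled points of the other genes all lie to the left of 0.

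Some markers of other cells moved with some of these values. Cd68 and Csf1r, the leukocyte and macrophage markers tested, summed to between 9.28 and 10.6 CPM in the empty vector with vehicle and between 5.42 and 8.29 CPM with HDAC1. With TGFB1 they summed to between 3.57 and 5.01 CPM for the empty vector and 2.43 to 3.53 CPM for HDAC1. Their part in the falls of Irf7 and Stat2 was not tested, and in bulk RNA fewer cells of a type and less RNA per cell cannot be told apart. The 4 endothelial markers tested summed to 3.98 to 4.58 CPM with the empty vector and 4.05 to 5.31 CPM with HDAC1 in vehicle. Under TGFB1 the endothelial sums were 3.72 to 4.52 and 2.61 to 3.66 CPM. Slc34a1, the 1 kidney tubule marker tested, was at 0.37 to 1.21 CPM over all libraries. With the summed heart and brain transcripts as a covariate, the HDAC1 effect with TGFB1 was 1.11 for Ifnb1 (edgeR adjusted p = 0.0116) and -0.77 for Irf7 (edgeR adjusted p = 0.00542), and both were still called. As given above, the covariate and HDAC1 cannot be well told apart in that comparison. With the same covariate, the falls with TGFB1 and the empty vector were -0.49 for Irf7, -0.77 for Stat2, -0.21 for Irf9, -0.53 for Ifnar1 and -0.84 for Irf1, and with HDAC1 they were -0.54, -0.74, -0.31, -0.25 and -0.79, all called (edgeR adjusted p from 1.82e-08 to 0.0215). Only the call of Irf3 with TGFB1 and the empty vector ended (-0.15, edgeR adjusted p = 0.311). Without replicate 1 of the empty vector with vehicle, the effects in vehicle were 1.05 for Ifnb1, -0.69 for Irf7, -0.36 for Stat2 and -0.34 for Ifnar1, all called (edgeR adjusted p from 0.000309 to 0.00880).

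Other genes of the pathway were counted from lists made with earlier results of these data known. Upstream of Ifnb1, 14 sensors and relays were tested. HDAC1 lowered 3 in vehicle (Zbp1, Ikbke and Sting1) and 3 with TGFB1 (Zbp1, Sting1 and Dhx58) and raised 0 in either, with list medians of -0.16 and 0.03. Over all genes 7.32% were called lower in vehicle and 4.36% with TGFB1, and 6.64% and 2.17% higher, which is the background for this and the following lists. Zbp1, a sensor of nucleic acid in the Z form, was at 35.0 ± 0.940 CPM with the empty vector and 18.2 ± 3.96 CPM with HDAC1 in vehicle, and fell by 0.95 on the log2 scale there and by 1.41 with TGFB1. Ikbke, a kinase that activates IRF3, fell by 0.56 in vehicle, and Sting1, the adaptor of DNA sensing, fell by 0.27 in vehicle and by 0.35 with TGFB1. With the covariate, Zbp1 stayed called (-0.98 and -1.34), as did Ikbke in vehicle (-0.59), and Sting1 was called in neither treatment (-0.22 and -0.45). With TGFB1, 1 gene was lowered with the covariate or without replicate 1 or 3 of either group. Without replicate 2 of the empty vector with TGFB1, 2 genes were lowered and 1 was raised. In vehicle, 2 were lowered with the covariate and without any 1 vehicle library other than replicate 2 of HDAC1, which left 4.

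Among 7 partners of IRFs at the Ifnb1 promoter, Hmga1 and Jun rose with HDAC1 in both treatments and 0 fell. HMGA1 bends promoter DNA and JUN is a subunit of AP-1. Hmga1 was at 242 ± 48.5 CPM with the empty vector and 415 ± 19.6 CPM with HDAC1 in vehicle, and at 228 ± 16.6 and 336 ± 11.8 CPM under TGFB1 (log2 fold changes 0.78 and 0.56, edgeR adjusted p = 0.000131 and 0.00567). Jun rose by 0.43 and 0.39 (edgeR adjusted p = 0.00273 and 0.0160). With TGFB1, 0 of the 7 were called with the covariate or without replicate 3 of the empty vector, and 1 without replicate 1 of the empty vector or replicate 1 or 3 of HDAC1. The NF-kB subunit genes Rela and Nfkb1 were at log2 fold changes of -0.07 each in vehicle and were not called. Of 11 further interferon genes on the list (alpha, gamma, epsilon, kappa and lambda), 0 had a row of that symbol in the table of named genes, which keeps genes with at least 100 counts in total, and they were not analysed here.

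Downstream of the receptor, some other IRF and STAT genes also fell with HDAC1. In vehicle, Stat3, which carries signals of the interleukin-6 family, fell by 0.36 on the log2 scale (edgeR adjusted p = 0.000581), Stat5b by 0.39 (edgeR adjusted p = 0.00994) and Irf2, a relative of Irf1, by 0.22 (edgeR adjusted p = 0.0351). With TGFB1, Irf5, which acts after Toll-like receptors, fell by 0.50 on the log2 scale (edgeR adjusted p = 0.0245), while Stat3 was at -0.20 (edgeR adjusted p = 0.0653). Stat3 in vehicle stayed called with the covariate (-0.36) and without each vehicle library. The call of Stat5b ended without replicate 1 of either vehicle group (-0.27 without that of HDAC1 and -0.32 without that of the empty vector), that of Irf2 with the covariate (-0.19) and without any 1 vehicle library (-0.22 to -0.18), and that of Irf5 with the covariate (-0.52) and without replicate 1 or 3 of HDAC1 or replicate 3 of the empty vector (values over all 6 left-out fits from -0.58 to -0.40). Among 7 receptor and kinase genes besides Ifnar1 and Ifnar2, only Il10rb was called (-0.26 in vehicle). Among 12 brakes on interferon signalling, Usp18 and Trex1 were called lower in vehicle (-0.23 and -0.22), or 2 of 12 beside 7.32% of all genes, and 0 with TGFB1. Leaving out replicate 1 of either vehicle group left 0 of the brakes lowered in vehicle. The brakes were also at 0 without replicate 3 of HDAC1 or 2 of the empty vector and at 1 without the remaining vehicle libraries or with the covariate, and Il10rb was not called without replicate 3 of HDAC1.

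Of 31 targets of ISGF3, 18 fell and 1 rose with HDAC1 in each treatment, with medians of -0.23 in vehicle and -0.28 with TGFB1, beside 7.32% and 4.36% of all genes called lower. The HDAC1 comparisons share no libraries, but the labels do not tell whether same-numbered libraries of the 2 treatments share a transfection. In the main fit 15 targets fell in both, which is 83.3% of each set. Over all genes 288 fell in both, which is 26.9% of those lower in vehicle and 45.2% of those lower with TGFB1. They included Bst2, a tether of viral particles (-0.75 and -0.61), and Oas2, an antiviral synthetase (-0.81 and -0.84). Ifit3, an adaptor of antiviral signalling, was the target that rose in both (0.47 and 0.52). With the covariate Ifit3 and Oas2 stayed called in both treatments, and Bst2 in vehicle (-0.77) but not with TGFB1 (-0.57, edgeR adjusted p = 0.0554). Of 9 genes of MHC class I presentation, 8 fell in vehicle and 7 with TGFB1, and those 7 were all among the 8, beside the same 7.32% and 4.36% of all genes. B2m, the light chain of MHC class I, went from 2575 ± 107 to 1869 ± 167 CPM in vehicle, and the immunoproteasome subunit Psmb10 fell by 0.48 in vehicle and by 0.74 with TGFB1. With the covariate B2m was -0.47 in vehicle and called, and -0.38 with TGFB1 and not called (edgeR adjusted p = 0.196), while Psmb10 stayed called (-0.49 and -0.73). Psmb10 in vehicle was not called without replicate 1 or 3 of HDAC1, and B2m with TGFB1 was not called without replicate 1 or 3 of HDAC1. The counts changed when single libraries were left out. In vehicle, 12 targets and 7 MHC genes fell with the covariate (medians -0.24 and -0.38). Without replicate 1 of the empty vector 10 and 3 fell (-0.22 and -0.35). The counts were 12 and 5 without its replicate 2, and 15 and 5 without its replicate 3. They were 9 and 1 without replicate 1 of HDAC1 (-0.18 and -0.29), and 9 and 2 without replicate 3 of HDAC1 (-0.19 and -0.31). With TGFB1, 5 and 1 fell with the covariate (-0.26 and -0.38), 10 and 1 without replicate 1 of HDAC1 (-0.27 and -0.42), 10 and 3 without its replicate 3 (-0.24 and -0.39), and 4 MHC genes without replicate 3 of the empty vector (-0.28).

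**Figure D4:**
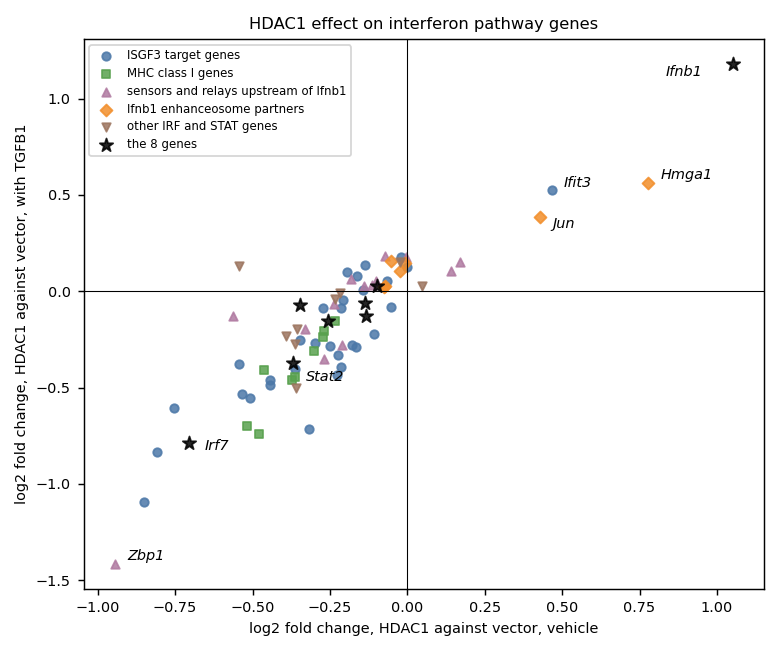
HDAC1 effect (log2 fold change against the empty vector) in vehicle on the horizontal axis and with TGFB1 on the vertical axis, 1 point for each tested gene of 5 lists and for the 8 genes described here (stars). Ifnb1 (1.05 and 1.18) and Zbp1 (-0.95 and -1.41) are at opposite ends, and Ifit3, Hmga1 and Jun are on the side of Ifnb1.

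By the pattern of log2 CPM over the 12 libraries, the genes most like Irf7 among 11428 compared were Ifitm3 (Pearson r = 0.991), Ly6e (0.988), Hsd11b1 (0.983), Psmb10 (0.978) and Adamts2 (0.975). Ifitm3 and Ly6e are interferon-induced membrane proteins. Those most like Ifnb1 were Mt-co1 (r = 0.950), Hdac1l (0.935), a Y RNA gene (0.934), Tfrc (0.929) and Hdac1 (0.923). These are descriptions over libraries that share groups, and carry no test.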

How the data were processed

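RNA from 12 libraries of NRK-49F cells was sequenced after poly(A) selection. Per the submitters' processing notes, the tools were Trim Galore 0.6.7, featureCounts (Subread 2.0.1) and DESeq2 1.44, and the notes name the mouse build mm10, while the gene identifiers are rat Ensembl genes. Which aligner and rat build were used, and how multiply matching reads were treated, is not given in the sources used here. The authors deposited raw counts per gene (43360 genes) and a normalized signal for 14275 genes with at least 100 counts in total. Each column of that signal equals the deposited counts divided by 1 constant, to within a relative spread of 1.2e-09. It was used for gene symbols.

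Counts were analysed with edgeR 4.0.16 in R 4.3.3. The filterByExpr function left 14601 genes, which held at least 99.879% of each library's counts, libraries were scaled with TMM, and a robust quasi-likelihood model with 1 mean per group was fitted to all 12 libraries (8 residual degrees of freedom). All tests are two-sided, with p-values adjusted by the Benjamini-Hochberg method across the 14601 genes, and a call means an adjusted p under 0.05. A standard error is the log2 fold change divided by the square root of F. The main fit was tried on simulated counts for HDAC1 in vehicle only, without a covariate and with all libraries kept. Alternatives were DESeq2 size factors and the DESeq2 1.42.0 test, other filters, fits restricted to 2 groups, a replicate block, a covariate (log2 of the summed CPM of heart and brain markers), and leaving out each library.

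The 8 genes, the lists and the covariate were chosen with earlier results of these data known. Named genes were the 8, up to 4 members of each list with the smallest adjusted p in each HDAC1 comparison, and the 5 genes most like Ifnb1 and Irf7 in pattern among genes with a symbol and a mean CPM of at least 1 (log2 CPM with a prior count of 2). A gene that the rule for lists picks is not reported here, nor are the counts of its list. Ticam1, a symbol of more than 1 row, was left out. The interferon regulatory factor core and the counts and genes per list under alternatives were added after the data were seen. Promoters came from RefSeq (GRCr8), matched by symbol for all 8 genes.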

Additional observations from a re-analysis of the deposited data

How the results depend on the processing

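Ifnb1 and Irf7 kept their direction and their call for HDAC1 in all 13 alternatives of each treatment. Ifnb1 ran from 0.95 to 1.13 in vehicle and from 1.06 to 1.27 with TGFB1 (adjusted p up to 0.000345 and 0.0116), and Irf7 from -0.79 to -0.64 and from -0.88 to -0.71 (adjusted p up to 0.000562 and 0.00542). Of 704 values recomputed for single genes, 655 kept direction and side of the threshold, and the 28 that changed sign were all of differences not called. Leaving out 1 library, these ranged for Ifnar2 from -0.061 to 0.0019 (average), from -0.032 to 0.086 (HDAC1 with TGFB1) and from -0.12 to 0.018 (TGFB1 with HDAC1), for Ifnb1 from -0.16 to 0.043 (TGFB1 with the empty vector) and from -0.040 to 0.20 (TGFB1 with HDAC1), and for the interaction from -0.18 to 0.00089 (Irf7), from -0.037 to 0.033 (Irf9) and from -0.076 to 0.077 (Stat2). With the covariate, Ifnb1 was at 0.0012 for TGFB1 with the empty vector, and the interaction was -0.13 for Irf3, -0.10 for Irf9 and 0.029 for Stat2. The interaction was 0.0011 and 0.0074 for Stat2 with DESeq2 size factors and the DESeq2 test, and -0.014 for Irf9 at a mean CPM of at least 1. The cause was not tested. Over all genes, HDAC1 with TGFB1 raised 317 and lowered 637, but 23 and 79 with the covariate and 67 and 170 without its replicate 1, 80 and 211 without its replicate 3, and 116 and 289 or 165 and 330 without replicate 1 or 3 of the empty vector; it raised more without replicate 2 of the empty vector (591 and 645) and in DESeq2 (615 and 689), and 485 and 887 without a filter. HDAC1 in vehicle raised 969 and lowered 1069, but 622 and 522 without its replicate 1, 788 and 572 without its replicate 3, and 680 and 559 or 757 and 654 without replicate 1 or 2 of the empty vector. The interaction gave 20 and 50, with 88 and 157 in DESeq2, 89 and 390 without a filter, 0 with the covariate and between 0 and 3 (without replicate 3 of HDAC1 with TGFB1) and 62 and 195 (without replicate 3 of the empty vector with vehicle) when 1 library was left out. Irf3 averaged over treatments (-0.21, edgeR adjusted p = 0.0547) was called with the covariate (-0.25), without a filter (-0.20), and without replicate 2 of the empty vector with TGFB1 (-0.23) or with vehicle (-0.23). Irf3 with TGFB1 and the empty vector was not called in the fit to the groups compared (-0.28) or with the covariate (-0.15). With the replicate block, Ifnb1 was at 1.05 and 1.17, Irf7 at -0.71 and -0.79, and only the averaged call of Irf9 ended (-0.13, edgeR adjusted p = 0.0576), which also ended without a filter (-0.13). Of 18 pairs of same-numbered libraries, 2 correlated above 0.1 in their deviations (r from -0.09 to 0.12). Pairs of different numbers were not compared, so this does not settle whether replicate numbers pair the libraries. Hdac1l was at 1297, 852 and 1367 CPM in replicates 1 to 3 of HDAC1 with vehicle. Under TGFB1 it was at 1211, 802 and 1256.5 CPM in those of HDAC1, the same order. Whether same-numbered libraries share a culture was not tested. With 103 to 510 counts of Ifnb1 in a library, its smaller differences are limited by depth.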

Other observations

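TGFB1 raised a few genes of the pathway while most fell, and these were chosen after their values were seen. Irf8, an IRF best known from myeloid cells, was between 13.8 and 14.1 CPM in the empty vector with vehicle and between 63.0 and 66.9 CPM with TGFB1 (n = 3), and between 13.6 and 15.4 and between 64.3 and 67.7 CPM with HDAC1. TGFB1 changed it by 2.22 (empty vector) and 2.20 (HDAC1) on the log2 scale, whereas the HDAC1 effect was 0.05 in vehicle and 0.02 with TGFB1 and was not called. Cgas, the sensor of DNA in the cytosol, rose with TGFB1 by 0.51 and 0.50, while Sting1, the adaptor that acts after it, fell by 1.59 and 1.67 on the log2 scale. Of the 14 sensors and relays tested, 11 fell and 2 rose with TGFB1 and the empty vector, and 8 fell and 2 rose with TGFB1 and HDAC1. Over all genes tested, 25% were called lower and 25.9% higher with TGFB1 and the empty vector, and 24.2% and 24.9% with TGFB1 and HDAC1.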
